A study of Mus musculus with 6 samples.

Results

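The acetylcholine receptor and neuromuscular junction genes are 10 rows of a table of 55416 genes, chosen by symbol: the receptor subunit genes Chrna1, Chrnb1, Chrnd, Chrne and Chrng, and Agrn, Lrp4, Musk, Dok7 and Rapsn, which build the receptor cluster. They were measured by RNA sequencing in the tibialis anterior (TA) muscle, a muscle at the front of the lower leg, in 3 libraries of wild-type (WT) mice and 3 libraries of SELENOW knockout (KO) mice. All mice had aged naturally to 24 months. The KO mice carry a deletion of exon 4 of Selenow, made by CRISPR-Cas9 with a pair of guide RNAs in the whole animal and not in muscle alone, and SELENOW is a small selenoprotein abundant in muscle. The legends of the study count its RNA sequencing replicates in mice, and the number of founder lines is not given in the sources used here.

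The neuromuscular junction is the synapse between a motor neuron and a muscle fiber, where acetylcholine opens the nicotinic receptor, a ring of subunits around a cation channel. Agrin released by the nerve binds LRP4 on the fiber, LRP4 switches on the kinase MuSK together with its adaptor DOK7, and rapsyn then holds the receptors in a dense cluster under the nerve ending. Fetal muscle builds the receptor with the gamma subunit, and after birth epsilon takes its place. Genes for alpha1 and gamma are kept low outside the synapse by electrical activity and rise again when a fiber loses its nerve, a response that runs through the myogenic factors myogenin and MyoD, which bind E boxes (CANNTG) in the subunit promoters.

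Before the comparison, the libraries themselves were examined. The WT libraries held 25351976 to 29111213 counts over all genes and the KO libraries 27345022 to 27815342, so that 3 counts, the level a count of 0 allows, corresponded to 0.103 to 0.118 CPM of the total. CPM, the count of a gene relative to the size of its library, is given below after scaling by TMM factors, which correct for differences in library makeup. Summed CPM of 6 muscle fiber markers lay between 75462 and 99213 in WT and between 84132 and 99950 in KO. Of 8 motor axon markers Chat, Slc18a3 and Slc5a7, genes of cholinergic neurons, had no count in any library. That lack does not tell whether nerve endings were present in the muscle. WT replicate 3 stood apart in markers of other cell types. Its sum over 10 leukocyte markers was 86.1 CPM against 21.4 to 36.2 in the other 5 libraries, with 7 of the 10 markers highest there, and its sum over 5 fibroblast markers was 226 CPM against 59.9 to 124, with 5 of 5 highest there. For Selenow itself the WT libraries gave 268, 245 and 219 CPM and the KO libraries 193, 212 and 210 CPM. Every KO library was lower than every WT library, but the fold change of 0.841 did not pass (edgeR, unadjusted p = 0.104, adjusted p = 0.604), and a count over the whole gene does not check the loss of one exon.

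The promoter letters are shown for the 4 members that carry the E box CAGCTG before the start, among them both members called below. RefSeq windows on GRCm38.p6, running from 250 bases before to 50 after a start, were on hand for 7 of the 10 members in 9 windows, and the 200 bases before the start are printed, 5′ to 3′ on the strand of the gene. Capitals mark CAGCTG and, for Chrne, the N box TTCCGG read on the other strand, a sequence bound by ETS factors in synaptic genes. CAGCTG is its own reverse complement and one form of the looser E box CANNTG, and it does not overlap the N box in these windows. The windows are chr2:73580339-73580538 (minus strand) for Chrna1, chr1:87205611-87205810 (plus strand) for Chrng, chr4:58285762-58285961 (plus strand) for Musk and chr11:70619195-70619394 (minus strand) for Chrne.
Chrna1: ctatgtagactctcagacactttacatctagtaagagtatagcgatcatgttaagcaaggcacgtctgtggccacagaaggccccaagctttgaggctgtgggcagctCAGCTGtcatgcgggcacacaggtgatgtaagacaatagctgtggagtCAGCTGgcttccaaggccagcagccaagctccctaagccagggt
Chrng: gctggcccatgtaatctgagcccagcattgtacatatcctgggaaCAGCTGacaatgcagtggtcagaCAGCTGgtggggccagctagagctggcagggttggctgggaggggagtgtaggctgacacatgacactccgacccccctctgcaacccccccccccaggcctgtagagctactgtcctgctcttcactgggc
Musk: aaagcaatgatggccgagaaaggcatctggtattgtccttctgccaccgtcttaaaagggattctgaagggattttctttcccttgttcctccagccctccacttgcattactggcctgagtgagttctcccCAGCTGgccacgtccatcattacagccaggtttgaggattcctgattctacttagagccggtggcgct
Chrne: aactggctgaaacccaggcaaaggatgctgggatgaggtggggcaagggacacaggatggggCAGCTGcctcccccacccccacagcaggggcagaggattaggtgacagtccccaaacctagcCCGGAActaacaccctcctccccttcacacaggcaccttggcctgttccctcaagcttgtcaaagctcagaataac
In Chrna1 CAGCTG began 92 and 44 bases before the start, and in Chrng 155 and 132 bases before it. The RefSeq start used for Chrng is not the first base of the gene in the GENCODE annotation of the same build. That gene begins at chr1:87204657, so the whole Chrng window lies inside it. Musk held it once, 68 bases before the start, and Chrne once, 138 bases before, with the N box at 76 bases. The windows of Chrnb1, Dok7 and Agrn held neither of these. The looser E box was found 3 times each in Chrna1, Chrng, Musk and Chrnb1, and 1 time in Chrne. Dok7 and Agrn, with 2 windows each, held it 1 time in 1 window. Its number thus did not set the called Chrna1 and Chrng apart from Musk and Chrnb1, which were not called. Among 32851 RefSeq windows of the same length 16.3% held CAGCTG, 1.90% held it at least 2 times, 72.3% held the looser CANNTG and 14.9% the N box, both strands searched. A match is a description of letters and not of binding, and Chrnd, Rapsn and Lrp4 were not searched.

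The comparison asked whether loss of SELENOW changed these genes in aged muscle. At the study's unadjusted thresholds Chrna1 and Chrng were called lower in KO muscle, and no member was called higher. A gene was called by the thresholds of the study's methods, an unadjusted p below 0.05 and a fold above 1.5 or below 0.7. The study applied them with DESeq2, which is an alternative here, run with its own filter on low counts turned off. The calls here come from edgeR's quasi-likelihood test on the counts of all 15623 genes that passed the filter on low counts. All 10 members passed that filter, 2 were called lower and 0 higher, and 8 had a lower KO value by the fit. In the same test 3.14% of all genes were called lower and 2.21% higher. The median log2 fold change of the members was -0.22, beside -0.0042 over all genes tested. No gene tested reached an adjusted p under 0.05 in this fit with edgeR, whereas 1545 had an unadjusted p under 0.05, and DESeq2 gave 45 genes an adjusted p under 0.05 with no member among them.

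**Figure D1:**
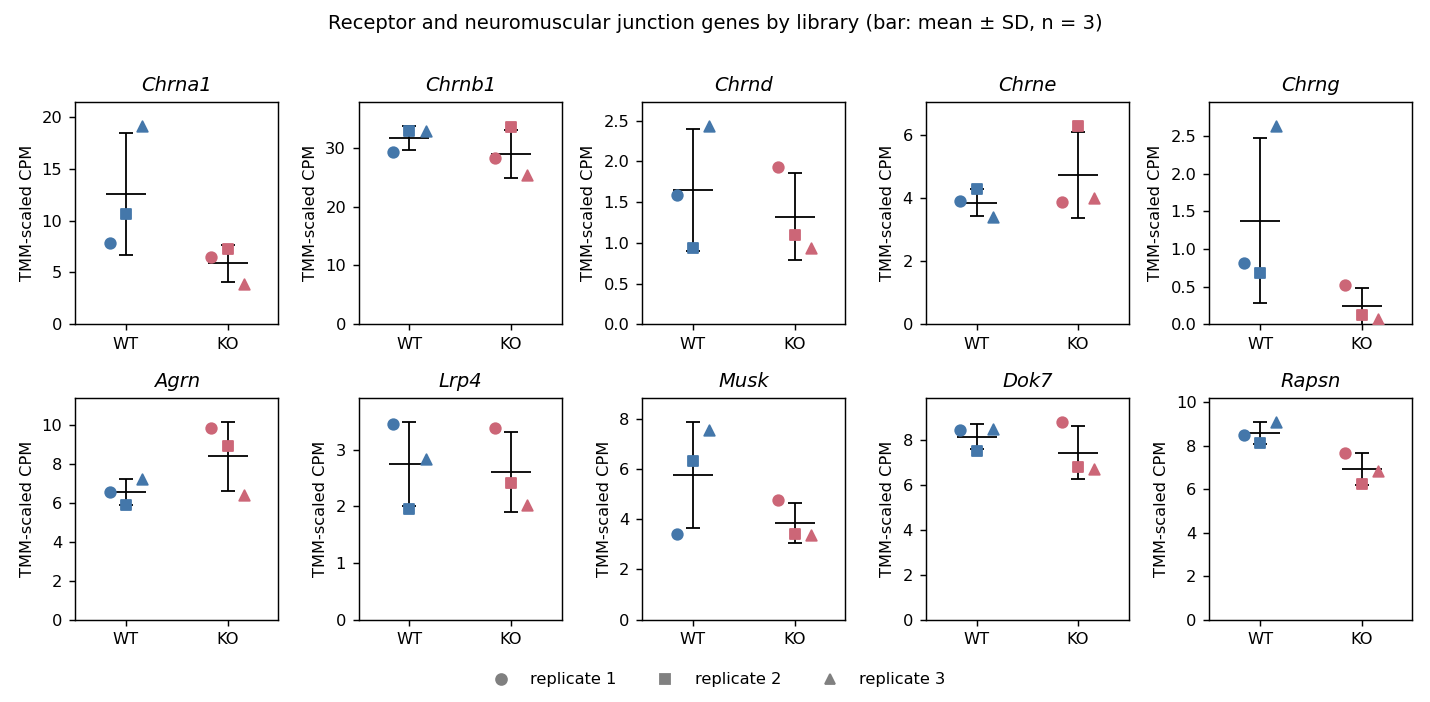
TMM-scaled CPM (y axis, from 0) of the 10 members in each WT and KO library (x axis); points are libraries, with shape for the replicate, and bars are mean ± SD (n = 3). Chrna1, Chrng and Rapsn are lower in every KO library than in any WT library, and the other 7 overlap.

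Chrna1 encodes the alpha1 subunit, which carries the acetylcholine binding sites and is present in both the fetal and the adult receptor. In order of replicate, it was at 7.83, 10.7 and 19.1 CPM in WT and at 6.53, 7.26 and 3.85 CPM in KO, and the same order holds for all values below. The genotypes did not overlap, but WT replicate 1 and KO replicate 2 lay close together and WT replicate 3 was well above the rest. The mean was 12.5 ± 5.88 CPM in WT and 5.88 ± 1.79 CPM in KO (SD, n = 3 each). This was a difference of -1.10 on the log2 scale (SE 0.397, fold 0.467), with an unadjusted p of 0.0319 and an adjusted p of 0.469 in edgeR's test. DESeq2 gave an unadjusted p of 0.000362 and an adjusted p of 0.0808. Without KO replicate 1 or KO replicate 3 the log2 fold change was -1.18 and -0.86, and Chrna1 was no longer called (edgeR, unadjusted p = 0.0598 and 0.0615). Without WT replicate 3 it was -0.66 and still called (edgeR, unadjusted p = 0.0324).

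Chrng encodes the gamma subunit of the fetal receptor. It had 20, 22 and 80 counts in the WT libraries and 13, 3 and 2 in the KO libraries, which is 0.811, 0.685 and 2.64 CPM in WT and 0.524, 0.122 and 0.0748 CPM in KO. The genotypes did not overlap, WT replicate 3 held most of the WT counts, and KO replicates 2 and 3 were at or under the 3 counts that a count of 0 allows. The log2 fold change was -2.52 (SE 0.772, fold 0.175), the largest fall among the members, with an unadjusted p of 0.0103 and an adjusted p of 0.356 in edgeR's test. DESeq2 gave an unadjusted p of 0.000376 and an adjusted p of 0.0815. The size of the fold change moved with single libraries, as it was -1.63 without WT replicate 3 and -3.75 without KO replicate 1, and Chrng was called in each of these fits.

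Chrnb1, Chrnd and Chrne, the genes of the beta1, delta and epsilon subunits, did not pass the test. Chrnb1 was at 29.2, 32.8 and 32.9 CPM in WT and at 28.2, 33.5 and 25.4 CPM in KO, so that the KO libraries spanned the WT range (log2 fold change -0.13, SE 0.135; edgeR, adjusted p = 0.788). Chrnd was at 1.58, 0.934 and 2.44 CPM in WT and at 1.93, 1.10 and 0.935 CPM in KO (log2 fold change -0.32, SE 0.392; edgeR, adjusted p = 0.816). Its libraries spread widely in both genotypes, and without WT replicate 3 the log2 fold change was 0.08. Chrne, the adult subunit, was at 3.89, 4.27 and 3.39 CPM in WT and at 3.87, 6.28 and 4.0 CPM in KO. KO replicate 2 lay above the WT range and the other KO libraries within it, and the log2 fold change was 0.29 (SE 0.220; edgeR, adjusted p = 0.692), or 0.03 without that library. Chrne overlaps 4930544D05Rik on the other strand, and as the handling of strand is not given in the sources used here, reads of that gene cannot be told apart from those of Chrne.

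Per length, the subunit genes covered a wide range of levels, and some of them overlapped. CPM per kilobase of counted length, the merged exons of all transcripts in the deposited table, was 12.5 ± 0.824 for Chrnb1, 2.86 ± 1.34 for Chrna1, 2.28 ± 0.259 for Chrne, 0.502 ± 0.229 for Chrnd and 0.331 ± 0.262 for Chrng in WT muscle (SD, n = 3 each). The WT libraries of Chrna1 and Chrne overlapped, as did those of Chrnd and Chrng, and Chrnb1 was above all the others. Rapsn, at 4.77 per kilobase, stood between Chrnb1 and Chrna1, Dok7 (1.91) and Musk (1.52) overlapped below Chrne, Agrn (0.707) overlapped Chrnd and Lrp4 (0.262) overlapped Chrng. In KO muscle the subunit levels were 11.5 ± 1.61 for Chrnb1, 2.79 ± 0.802 for Chrne, 1.34 ± 0.409 for Chrna1, 0.402 ± 0.163 for Chrnd and 0.0577 ± 0.0592 for Chrng (SD, n = 3 each). Chrne was above Chrna1 in every library except WT replicate 3, the one library that puts the WT mean of Chrna1 higher.

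**Figure D2:**
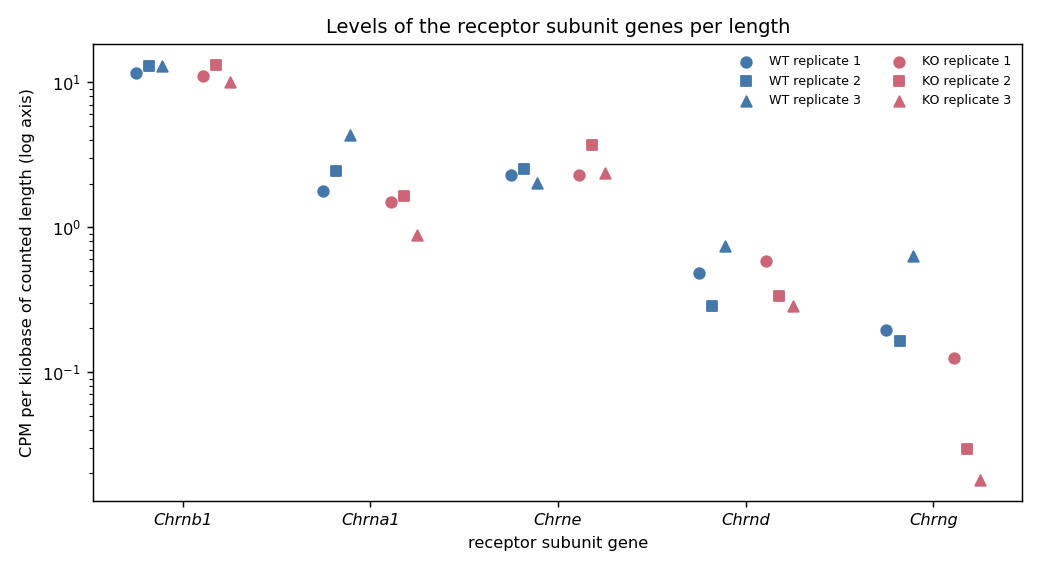
CPM per kilobase of counted length (y axis, log scale) of the receptor subunit genes (x axis) in each library, WT in blue and KO in red, with shape for the replicate. Chrnb1 is highest in all libraries, and Chrng is lowest in all 6.

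Set against each other within a library, alpha1 RNA was 15.4%, 18.8% and 33.6% of beta1 RNA per length in the WT libraries and 13.4%, 12.5% and 8.74% in KO. Gamma RNA was 8.46%, 6.52% and 31.5% of epsilon RNA per length in WT and 5.50%, 0.791% and 0.759% in KO. Both shares were lower in every KO library than in any WT library, and WT replicate 3 again stood highest. With 3 and 2 gamma counts the exact 95% intervals of the gamma share were 0.161% to 2.35% in KO replicate 2 and 0.0907% to 2.81% in KO replicate 3, and that of KO replicate 1, 2.82% to 9.85%, overlapped those of WT replicates 1 and 2. The intervals cover counting error only, and the shares combine values already compared above and were given no test.

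Among the cluster-building genes none passed the test. Agrn encodes agrin, which nerve and muscle both make in different splice forms that a gene count does not separate. It was at 6.57, 5.92 and 7.21 CPM in WT and at 9.87, 8.93 and 6.43 CPM in KO (log2 fold change 0.36, SE 0.177; edgeR, unadjusted p = 0.0672, adjusted p = 0.547). KO replicates 1 and 2 lay above all WT libraries and KO replicate 3 within their range. Without KO replicate 3 the log2 fold change was 0.52 (edgeR, unadjusted p = 0.011), still short of the fold threshold. Without KO replicate 1 it was 0.23 (edgeR, unadjusted p = 0.258). Lrp4, the agrin receptor, was at 3.45, 1.96 and 2.83 CPM in WT and at 3.38, 2.41 and 2.02 CPM in KO, and these ranges nearly coincided (log2 fold change -0.07, SE 0.273; edgeR, adjusted p = 0.951).

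Musk, the kinase of the cluster pathway, was at 3.41, 6.32 and 7.54 CPM in WT and at 4.75, 3.43 and 3.37 CPM in KO. WT replicates 2 and 3 lay above all KO libraries, and WT replicate 1 was as low as KO replicates 2 and 3. The log2 fold change was -0.59 (SE 0.277, fold 0.665), past the fold threshold but not the p threshold (edgeR, unadjusted p = 0.0583, adjusted p = 0.528). Without WT replicate 1 it was -0.85 and without KO replicate 1 -0.76, and Musk was called lower in both (edgeR, unadjusted p = 0.00199 and 0.0328). Without WT replicate 3 it shrank to -0.35 (edgeR, unadjusted p = 0.237), and without WT replicate 2, KO replicate 2 or KO replicate 3 it was -0.51, -0.51 and -0.50, in none of which Musk was called (edgeR, unadjusted p from 0.141 to 0.161). DESeq2 on the same genes called Musk (unadjusted p = 0.0486) beside Chrna1 and Chrng, so 3 members, where 3.06% of all genes were called lower.

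Dok7, the adaptor that activates MuSK, was at 8.44, 7.50 and 8.50 CPM in WT and at 8.82, 6.81 and 6.70 CPM in KO (log2 fold change -0.13, SE 0.156; edgeR, adjusted p = 0.812). KO replicate 1 was the highest of the 6 libraries. Rapsn, which encodes rapsyn, was at 8.52, 8.12 and 9.12 CPM in WT and at 7.69, 6.24 and 6.85 CPM in KO. All KO libraries lay below the WT range and the spread within each genotype was small, but the fall of 0.31 on the log2 scale (SE 0.145, fold 0.807) reached neither threshold (edgeR, unadjusted p = 0.0537, adjusted p = 0.514). Rapsn overlaps the antisense gene Gm13778, whose reads cannot be told apart without strand. With Chrna1 and Chrng, 3 of 10 members did not overlap between genotypes with KO lower, against 7.87% of all genes tested.

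**Figure D3:**
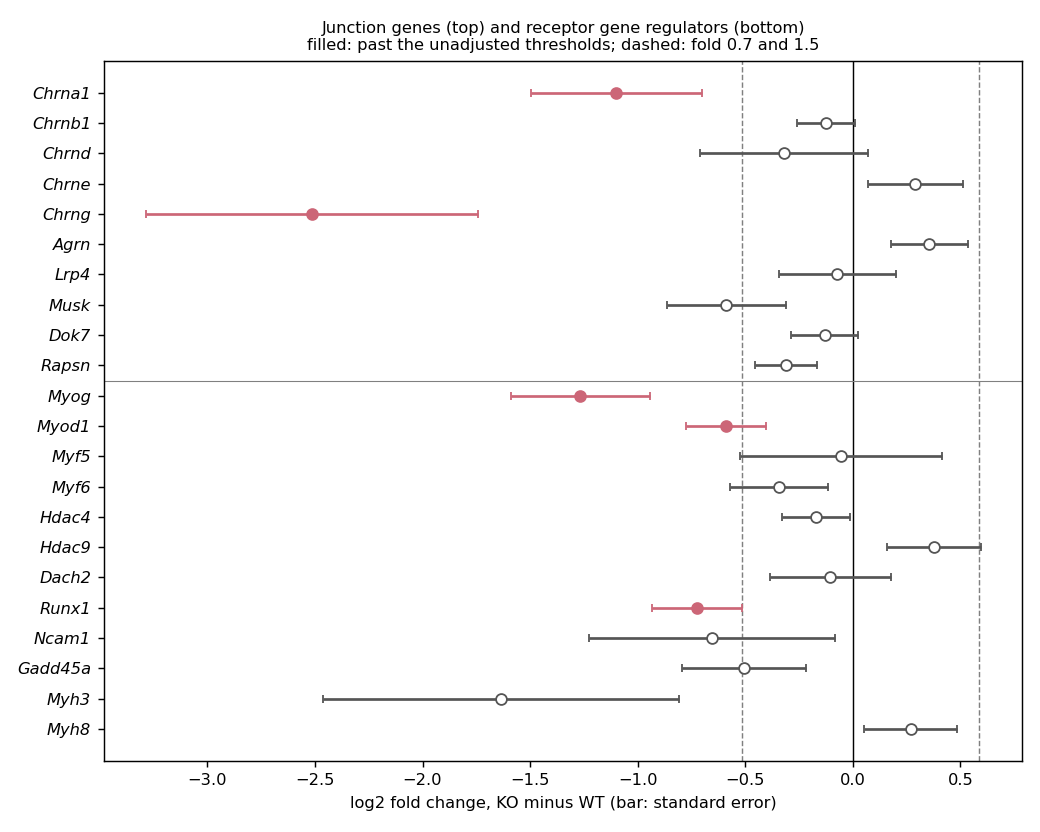
Log2 fold change, KO minus WT, with its standard error (x axis) for the 10 members and the 12 regulators and denervation genes (y axis). Filled red points passed the unadjusted thresholds, and dashed lines mark a fold of 0.7 and 1.5. The filled points are Chrna1, Chrng, Myog, Myod1 and Runx1, all to the left of 0.

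The members differed in how steady they were. In WT muscle the SD was 5.85% of the mean for Rapsn, 6.59% for Chrnb1, 6.85% for Dok7 and 9.89% for Agrn, but 36.9% for Musk, 45.7% for Chrnd, 46.9% for Chrna1 and 79.2% for Chrng. WT replicate 3 was the highest library for 5 of the 10 members (Chrna1, Chrnd, Chrng, Musk and Rapsn), and the same library held the high leukocyte and fibroblast sums given above. The part of those cells in the members' values was not tested. How many of all genes were highest in WT replicate 3 was not counted, so 5 of 10 has no share to be set against. Between the genotypes, 7 of 9 tested leukocyte markers and 5 of 5 fibroblast markers had a negative log2 fold change, with Csf1r called lower and Cd3e called higher. Summed Schwann cell markers were 6.79 to 12.6 CPM in WT and 9.25 to 16.1 CPM in KO, and satellite cell markers 2.55 to 3.79 CPM in WT and 2.36 to 3.71 CPM in KO. Endothelial markers summed to 53.4 to 86.0 CPM in WT and 80.0 to 95.7 CPM in KO, and the motor axon list to 12.0 to 12.8 CPM in WT and 13.0 to 17.1 CPM in KO, most of it Vamp1, which other cells express too. As whole muscle was sequenced, fewer fibers or synapses and less RNA in each cannot be told apart.

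**Figure D4:**
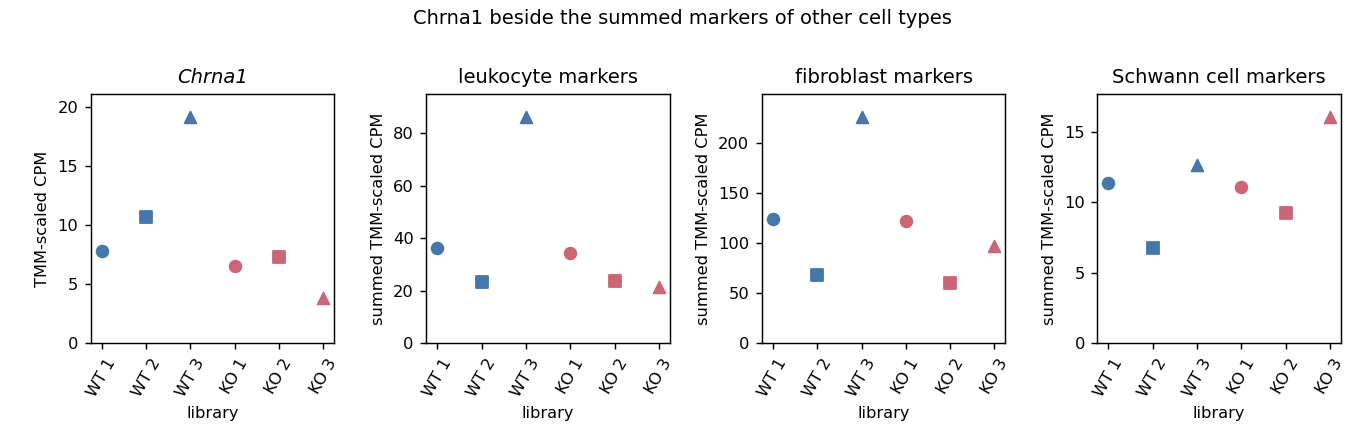
TMM-scaled CPM of Chrna1 and summed CPM of leukocyte, fibroblast and Schwann cell markers (y axes, from 0) in each library (x axis), WT in blue and KO in red. WT replicate 3 is highest for Chrna1 and for the leukocyte and fibroblast sums, and KO replicate 3 is highest for the Schwann cell sum.

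Other genes of the junction mostly stayed short of the thresholds. Of 40 listed, 38 were tested, 1 was called lower and 0 higher, a count near the 3.14% and 2.21% of all genes, 20 had a negative log2 fold change, and the median was -0.0048. Ache and Colq, the acetylcholinesterase that ends the signal and the collagen tail that anchors it in the cleft, gave log2 fold changes of 0.15 (SE 0.161; edgeR, adjusted p = 0.790) and -0.27 (SE 0.266; edgeR, adjusted p = 0.762). All 8 genes of the cleft and basal lamina failed the test, with a median of 0.05. Utrn, which encodes the utrophin of the postsynaptic scaffold, was at 10.3 to 12.2 CPM in WT and 11.4 to 13.8 CPM in KO (log2 fold change 0.15, SE 0.140; edgeR, adjusted p = 0.747).

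The single call, which does not set the list apart from all genes, was Sntb1, encoding beta1-syntrophin, a scaffold protein that binds dystrophin and utrophin. It was at 2.96, 3.92 and 4.28 CPM in WT and at 2.74, 1.92 and 0.898 CPM in KO. All KO libraries were below all WT libraries, WT replicate 1 and KO replicate 1 lay close together, and KO replicate 3 was lowest. The log2 fold change was -1.01 (SE 0.340, fold 0.495; edgeR, unadjusted p = 0.0128, adjusted p = 0.378), and it was called in each fit that left out a library. Among the other 11 scaffold genes none was called in the full set. Without WT replicate 3, Sntb2 was called higher, at a log2 fold change of 0.75 (edgeR, unadjusted p = 0.0147).

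None of 6 genes of signalling below MuSK was called, nor any of 7 tested genes of neuregulin signalling and synaptic transcription or of 5 glycosylation genes mutated in congenital myasthenic syndromes. Nrg1 and Erbb4 did not pass the filter on low counts. Erbb3, a neuregulin receptor, Etv5, an ETS factor of subsynaptic nuclei, and Gfpt1, the first enzyme of hexosamine synthesis, had log2 fold changes of -0.20 (SE 0.267), 0.05 (SE 0.212) and -0.01 (SE 0.140). Of the 11 neuronal-type nicotinic subunit genes, Chrna3, Chrna5, Chrna6, Chrna7, Chrnb3 and Chrnb4 had no count in any library. Chrna10 and Chrnb2 were tested and not called, Chrna10 at 7.70 ± 1.99 CPM in WT and 8.98 ± 0.222 CPM in KO and Chrnb2 at 0.868 ± 0.437 and 0.661 ± 0.174 CPM (SD, n = 3 each), and Chrna2, Chrna4 and Chrna9 had too few counts to test.

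The regulators of the receptor genes and the genes known to rise on denervation held 3 genes called lower among 12 tested and 0 called higher, against the 3.14% and 2.21% of all genes given above. Their median log2 fold change was -0.42, and 10 of 12 were negative. These genes were listed with earlier results of the same libraries known, so their direction is not independent evidence.

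Myog encodes myogenin, which drives Chrna1 and Chrng in muscle without nerve input. It was at 5.68, 3.64 and 7.15 CPM in WT and at 3.30, 1.51 and 2.02 CPM in KO, with no overlap and with WT replicate 2 and KO replicate 1 close together (log2 fold change -1.27, SE 0.322, fold 0.416; edgeR, unadjusted p = 0.00282, adjusted p = 0.299; DESeq2, adjusted p = 0.0454). Myod1, the gene of MyoD, was at 6.41, 6.69 and 8.79 CPM in WT and at 4.15, 5.83 and 4.60 CPM in KO, again with no overlap (log2 fold change -0.59, SE 0.186; edgeR, unadjusted p = 0.00805, adjusted p = 0.340). Its fold was no longer past the threshold without WT replicate 3 (-0.43) or KO replicate 1 (-0.48).

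Runx1, a transcription factor that denervated fibers switch on and that blood cells also express, was at 4.62, 5.57 and 6.49 CPM in WT and at 4.23, 2.85 and 3.03 CPM in KO (log2 fold change -0.72, SE 0.210; edgeR, unadjusted p = 0.00464, adjusted p = 0.316). The genotypes did not overlap, and KO replicate 1 lay closest to the WT range.

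The rest of the regulator list did not pass. Hdac4 and Dach2, a deacetylase and a corepressor that link nerve activity to Myog, had log2 fold changes of -0.17 (SE 0.159; edgeR, adjusted p = 0.751) and -0.10 (SE 0.281; edgeR, adjusted p = 0.931). Ncam1, an adhesion molecule that spreads over denervated fibers, was at 3.45, 2.68 and 8.93 CPM in WT and at 4.75, 2.94 and 1.91 CPM in KO. WT replicate 3 lay far above the other 5 libraries, and the log2 fold change moved from -0.65 (SE 0.574; edgeR, adjusted p = 0.750) to 0.06 without that library. Myh3 and Myh8, developmental myosins with close paralogs whose reads may be shared, were at -1.63 and 0.27 on the log2 scale and not called. Myh3 was called lower without KO replicate 3, at -2.80 (edgeR, unadjusted p = 0.00014), with robust estimation off (edgeR, unadjusted p = 0.0138) and by DESeq2 (unadjusted p = 0.0425). DESeq2 thus called 4 genes of this list of regulators and denervation genes.

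Gadd45a, a stress gene that rises on denervation, was at -0.51 and was called lower without WT replicate 3, at -0.70 (edgeR, unadjusted p = 0.0252), and with no filter on low counts (edgeR, unadjusted p = 0.000745). Myf6 and Myf5, the other myogenic factors, were at -0.34 (SE 0.228) and -0.05 (SE 0.469), and Myf6 was called lower without KO replicate 1, at -0.56 (edgeR, unadjusted p = 0.0265). Hdac9, a deacetylase that represses in step with nerve activity, was at 0.38 (SE 0.219; edgeR, adjusted p = 0.609).

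**Figure D5:**
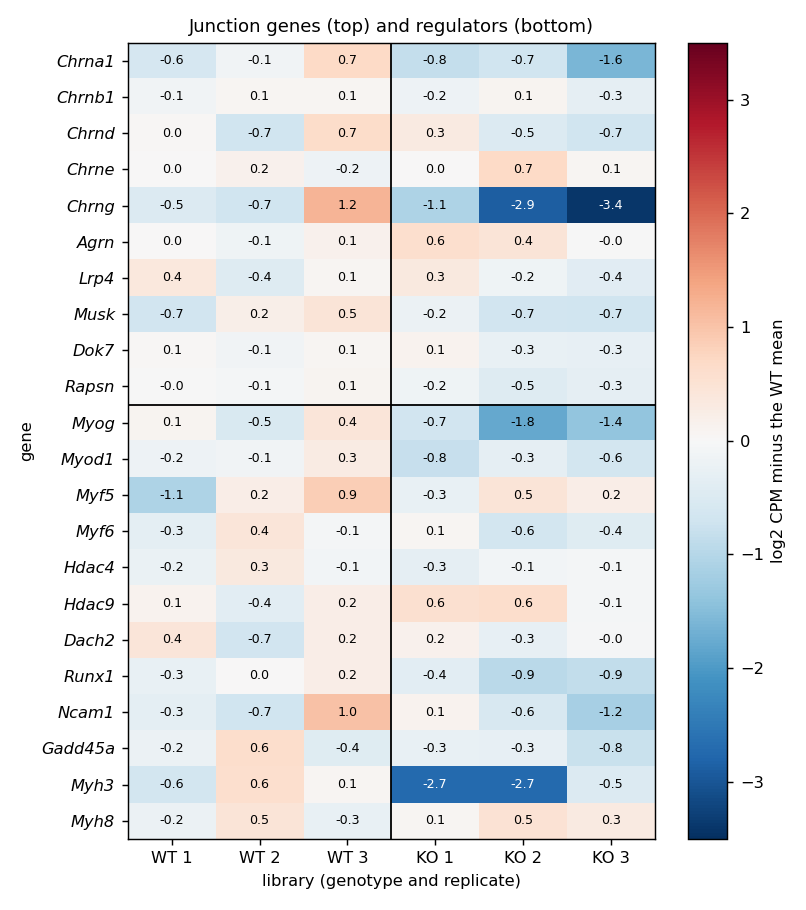
Log2 CPM (prior count 1) minus the gene's WT mean (colour and printed value) for the 10 members and the 12 regulators and denervation genes (rows) in each library (columns). WT replicate 3 is the highest library for 5 members and 5 of the 12 other genes, and no member is highest in KO replicate 3.

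To find genes patterned like Chrna1, log2 CPM centred on each gene's mean was compared over the 6 libraries for 11136 genes with a mean of at least 50 counts, by the root mean square difference. The closest were Gm13456, a processed pseudogene whose counts may be shared with its parent (0.209), H2-Eb1, an antigen-presenting molecule (0.247), Ccr2, a chemokine receptor of monocytes (0.273), ENSMUSG00002075524, which has no symbol (0.325), Fos, an immediate early gene (0.337), and Mrc1, a macrophage receptor (0.348). H2-Eb1, Ccr2 and Mrc1 are genes of leukocytes. Each of these closest genes, of leukocytes or not, was highest in WT replicate 3, which the choice by likeness to Chrna1 favours. Of the members, Musk stood at rank 26 in this order, Rapsn at 564, Chrnb1 at 710, Dok7 at 1524, Lrp4 at 4746, Agrn at 7686 and Chrne at 9279, while Chrnd and Chrng were under 50 counts. Runx1 stood at rank 27, Myod1 at 35, Ncam1 at 61 and Myog at 375. The order is a description over 6 libraries. Any difference in cell makeup between these libraries, WT replicate 3 included, would enter all its profiles, and this was not tested.

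In the genome, Chrnd (chr1:87118329-87127792) and Chrng (chr1:87132379-87140416) are neighbours on the plus strand, and 4587 bases separate the end of the first from the start of the second. Chrng was called and Chrnd was not, and the difference between them was not tested. Chrna1 lies at chr2:73393559-73410682 on the minus strand, and Rapsn (chr2:90865965-90876074) and Lrp4 (chr2:91287856-91344124) lie on the plus strand of the same chromosome. Chrnb1 (chr11:69674862-69686769) and Chrne (chr11:70505709-70510042) share chromosome 11, minus strand. Musk lies at chr4:58285960-58374303 (plus), Agrn at chr4:156249747-156281945 (minus) and Dok7 at chr5:35214110-35245183 (plus). These whole-gene positions are those of the deposited table, for which the submitters' processing notes name GRCm39, whereas the methods name GRCm38, so they were not mixed with the promoter windows.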

How the data were processed

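TA muscle RNA from 3 WT and 3 KO libraries was sequenced by the authors as paired-end reads from a NEBNext Ultra kit, aligned with Hisat2 and counted per gene with featureCounts. The authors deposited raw counts, not normalized, for 55416 genes. The handling of strand and of multimapping reads is not given in the sources used here. Groups came from the sample labels. The WT column without a number was taken as replicate 1 by elimination. Symbols were matched by Ensembl identifier for 52083 genes.

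Genes that passed edgeR's filterByExpr were scaled by TMM factors, 0.974 to 1.20 in WT and 0.893 to 0.968 in KO. These genes were compared with edgeR's robust quasi-likelihood test (edgeR 4.0.16, R 4.3.3), with Benjamini-Hochberg adjustment over 15623 genes. The scripts were tested on simulated counts. At 3 libraries a genotype, each SD rests on 3 values. Replicates of a genotype differed far beyond sampling noise, with chi-square per degree of freedom from 21.1 to 79.3. Alternatives were DESeq2 (version 1.42.0), edgeR with the size factors of DESeq2, a filter turned off or set to 10 counts in each library, robust estimation off, leaving out mitochondrially encoded genes, which took 29.1% to 40.3% of counts, a log2 fold change beyond 1, the replicate number as a block, and leaving out each library.

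The members, gene lists and marker lists were chosen with earlier results of these data known, and some of their genes are in the study's own results. By real-time PCR (n = 6) the study reported lower Chrng, Myog and Myod1 RNA in KO muscle, which it described as matching its sequencing. Chrna1 is not among the genes it named there. Whether other mice were used for the PCR is not given in the sources used here. Named were the 10 members, 12 further junction genes and regulators (Ache, Colq, Utrn, Erbb3, Etv5, Gfpt1, Myog, Myod1, Hdac4, Dach2, Runx1 and Ncam1), any other listed gene called in the comparison, Selenow and the 6 genes most like Chrna1. Myh3, Myh8, Myf5, Myf6, Hdac9, Gadd45a, Sntb2, Csf1r, Cd3e and the tested nicotinic subunits were named after their values were seen. 1 further gene planned for the regulator list was left out of it and is not reported here. Promoter sequences are from RefSeq.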

Additional observations from a re-analysis of the deposited data

How the results depend on the processing

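Of the 24 genes followed, 311 values under the alternatives were compared with the reported ones. In 290 the direction and the side of the thresholds stayed, 5 lost a call, 4 gained one and 12 changed sign, each of the 12 by leaving out a library. Chrng was called lower in every alternative that tested it. The number of members called was 2, and it was 1 with at least 10 counts in every library, where Chrng is not tested for want of counts in KO replicates 2 and 3, and 1 with the replicate block, where Chrng was called and Chrna1, at -1.03, was not (edgeR, unadjusted p = 0.122). Leaving out a library gave 1 to 3 members called, 1 to 2 other junction genes against 1, and 3 to 4 regulators and denervation genes against 3. With a log2 fold change beyond 1, 1 regulator was called. Without a library, log2 fold changes of genes never called ranged across 0: Chrnd from -0.69 to 0.082, Lrp4 from -0.30 to 0.12, Etv5 from -0.10 to 0.15, Gfpt1 from -0.11 to 0.088, Hdac4 from -0.29 to 0.023, Dach2 from -0.37 to 0.11 and Ncam1 from -1.05 to 0.063. Musk was also called with no filter on low counts (-0.60; edgeR, unadjusted p = 0.00319). Over all genes, 836 calls among 15623 tested became 1780 among 31780 with no filter, a rise that came with more genes tested. With a log2 fold change beyond 1 there were 315 calls among 15623. Without the filter edgeR also gave Chrna1, Chrng, Myog, Sntb1 and Runx1 adjusted p-values of 0.00208, 0.000119, 2.41e-05, 0.0114 and 0.0432, among 363 genes under 0.05. The fold changes hardly moved with this setting, only the p-values did. Chrng was at -2.52 in both fits, with an unadjusted p of 0.0103 with the filter and 1.04e-07 without it (edgeR). Why the p-values fell was not tested. Deviations of same-numbered WT and KO libraries correlated at 0.06, 0.04 and -0.07 across genes, and those of differently numbered ones from -0.14 to 0.09. With 3 libraries a genotype these values cannot decide whether the replicate numbers pair the libraries. The block gave 890 genes called, against 836 without it. KO replicates 2 and 3 hold 3 counts or fewer of Chrng, so depth limits its fold change.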
